A study of Mus musculus with 4 samples.

Results

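Wnt signalling genes were examined in ingWAT, the inguinal white fat under the skin, of cold-exposed mice. The set held 48 of the 19030 genes listed for these libraries and its members were found by their symbols. It comprised 16 Wnt ligands, 10 secreted antagonists (*Sfrp*, *Dkk*, *Frzb*, *Wif1*), 10 Frizzled receptors, 4 co-receptors (*Lrp5*, *Lrp6*, *Ror1*, *Ror2*) and 8 intracellular genes (*Ctnnb1*, *Axin1*, *Axin2*, *Apc*, *Tcf7l1*, *Tcf7l2*, *Nkd1*, *Nkd2*). RNA had been sequenced from Ctrl mice, whose *Oct3* (*Slc22a3*) alleles lie between loxP sites, and from cKO mice, which have the same floxed alleles plus an Adiponectin-Cre transgene. Oct3 is an organic cation transporter that takes up norepinephrine, and Adiponectin-Cre deletes only in adipocytes, whereas RNA was taken from the whole depot. The labels give C57BL/6 strain, an age of 3 months and housing at 4°C for all mice, and the study describes male mice kept first at a milder temperature and then at 4°C. Each genotype had 2 libraries, and how many mice each library holds is not stated, so the p-values measure the spread between these libraries, which may be technical.

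The Wnt ligands are lipid-modified secreted proteins that bind Frizzled receptors together with Lrp5 or Lrp6. In the canonical branch this stops a complex of Axin, Apc and kinases from marking β-catenin (*Ctnnb1*) for degradation, and β-catenin then acts with TCF/LEF factors on target genes, of which *Axin2* is the one most widely used as a readout. Other ligands, such as Wnt5a, act mainly through β-catenin-independent branches that use the Ror kinases. Secreted frizzled-related proteins (Sfrp) and Wif1 bind the ligands, and Dickkopf proteins (Dkk) bind Lrp5 and Lrp6. In fat, Wnt10b is known as an inhibitor of adipocyte differentiation and Sfrp5 as a protein secreted by adipocytes.

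Expression was given as FPKM, a measure of fragments per gene that corrects for transcript length and sequencing depth. Depth was not given and was estimated as 17400000 to 18150000 reads per library from the steps between low FPKM values. Ctrl and cKO were set against each other by limma, with log2(FPKM + 1) as the measure, and a gene was called where its Benjamini-Hochberg adjusted p over all genes tested was under 0.05. Every log2 fold change below is cKO against Ctrl on that scale, which understates the change of low genes. *Slc22a3* was at 17.0 and 17.7 FPKM in Ctrl and at 9.07 and 9.50 in cKO (log2 fold change -0.83, limma adjusted p = 0.000439), lower in both cKO libraries. Markers of adipocytes were abundant in all 4 libraries. *Adipoq* was at 1527 and 1485 FPKM in Ctrl and lower, at 966 and 1046, in cKO (log2 fold change -0.58, limma adjusted p = 0.00275). Markers of other cell types differed between the genotypes too.

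Of the 48 genes, 26 had a mean of at least 1 FPKM over the 4 libraries and were tested, and 22 lay below. Among the 26, 11 were lower in cKO and 1, *Axin2*, was higher, while 14 did not pass. Of all 12658 genes tested, 13.8% were called lower and 12% higher. In 21 of the 26 each cKO library stood below each Ctrl library, as was so in 34.6% of all genes tested. In 1 both lay above, against 31.9% of all genes, and in 4 the groups overlapped. The median log2 fold change of the 26 was -0.28, beside -0.006 over all genes tested, and the range ran from -1.10 to 0.55. *Dkk2* and *Wnt9a* passed the minimum through Ctrl only, with cKO means of 0.500 and 0.940 FPKM.

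**Figure D1:**
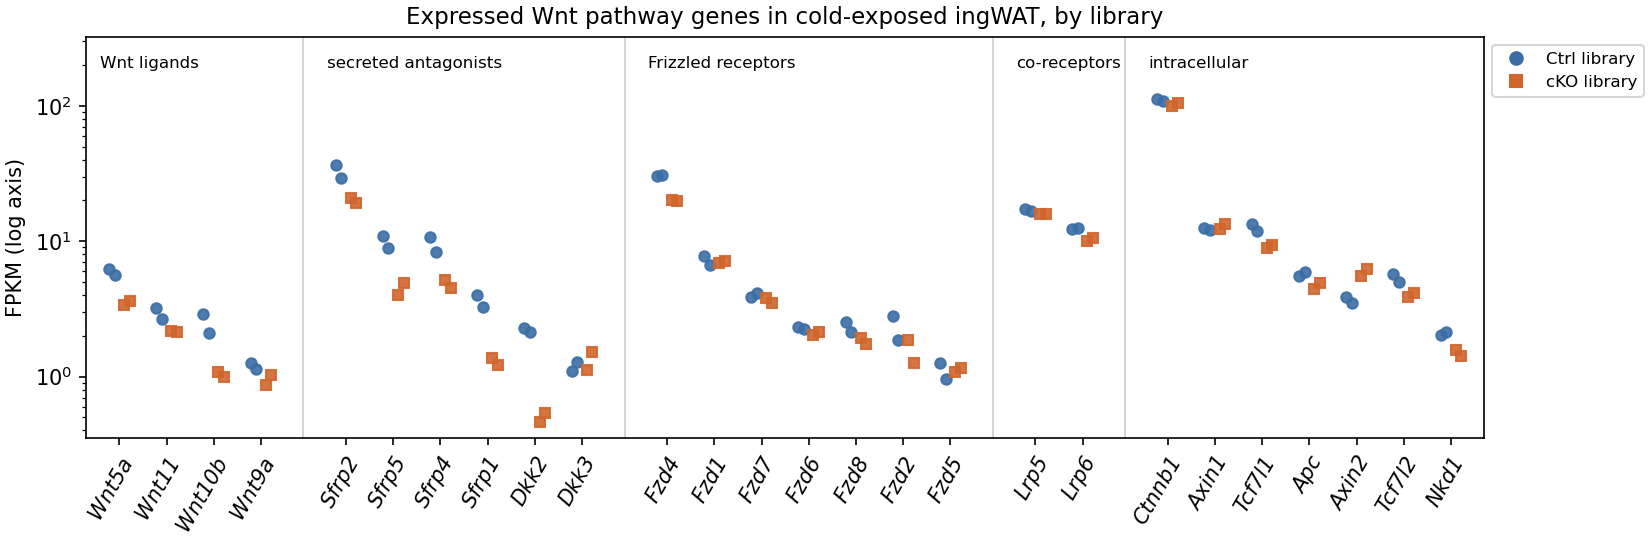
FPKM (log axis) of the 26 tested Wnt pathway genes, grouped by role, with 1 point for each Ctrl library (circles) and each cKO library (squares). The cKO points lie below both Ctrl points for 21 genes, with *Dkk2* the farthest apart, and above them only for *Axin2*.

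Promoter windows are printed for the called genes at both ends of the range that had one, so that the genes that fell can be read beside the gene that rose. They are RefSeq windows of GRCm38.p6 (the mm10 build), 250 bases before to 50 after the transcript start, written 5′ to 3′ on the strand of the gene. *Axin2* is at chr11:108920099-108920398 on the plus strand, *Dkk2* at chr3:132085042-132085341 on the plus strand, *Sfrp5* at chr19:42202203-42202502 on the minus strand and *Wnt10b* at chr15:98778101-98778400 on the minus strand. Capitals mark a half-site of the cAMP response element (CRE, TGACG or its complement CGTCA), the element bound by Creb, and no other searched motif occurs in these 4 windows.
Axin2: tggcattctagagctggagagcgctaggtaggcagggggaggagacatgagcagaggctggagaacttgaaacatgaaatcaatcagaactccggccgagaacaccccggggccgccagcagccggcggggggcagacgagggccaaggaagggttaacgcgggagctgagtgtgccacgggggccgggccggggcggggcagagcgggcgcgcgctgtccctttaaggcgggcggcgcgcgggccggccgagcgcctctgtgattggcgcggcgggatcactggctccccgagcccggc
Dkk2: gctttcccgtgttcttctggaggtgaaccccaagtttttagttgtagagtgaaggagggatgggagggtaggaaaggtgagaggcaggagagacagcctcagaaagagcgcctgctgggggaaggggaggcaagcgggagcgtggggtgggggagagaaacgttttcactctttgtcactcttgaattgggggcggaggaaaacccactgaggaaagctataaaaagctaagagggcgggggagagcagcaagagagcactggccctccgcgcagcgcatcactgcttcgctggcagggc
Sfrp5: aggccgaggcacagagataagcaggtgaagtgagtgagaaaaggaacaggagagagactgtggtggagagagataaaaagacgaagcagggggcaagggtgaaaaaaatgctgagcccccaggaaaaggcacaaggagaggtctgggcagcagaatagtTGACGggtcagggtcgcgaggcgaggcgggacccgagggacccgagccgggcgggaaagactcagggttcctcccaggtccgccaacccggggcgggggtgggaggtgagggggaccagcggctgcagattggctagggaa
Wnt10b: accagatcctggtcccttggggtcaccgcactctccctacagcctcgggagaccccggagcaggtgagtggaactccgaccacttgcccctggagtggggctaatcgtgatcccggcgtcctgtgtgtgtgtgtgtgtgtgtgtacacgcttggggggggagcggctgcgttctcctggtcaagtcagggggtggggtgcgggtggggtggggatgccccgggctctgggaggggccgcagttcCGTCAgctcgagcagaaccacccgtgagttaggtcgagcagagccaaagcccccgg
Both strands were searched for the TCF/LEF heptamer CTTTGNN with A or T at each N, for the CRE half-site and for the full CRE TGACGTCA, which contains the half-site on both strands. Counting the first transcribed base as 0, the half-site began at -91 in the *Sfrp5* window and at -6 in the *Wnt10b* window. Of the 12 called genes, 8 had a window and *Tcf7l2* had 2 of them, which makes 9. Half-sites were in 3 of the 9 (33.3%), the other one in the upstream *Tcf7l2* window at -53, beside 20.8% of all 32851 promoter windows. Over the 37 windows of the whole set, called or not, 7 held a half-site (18.9%). A TCF/LEF heptamer was in 1 of the 9, an internal *Tcf7l2* window, and in 6 of the 37 (16.2%), beside 16.9% of all windows. Neither the *Axin2* nor the *Dkk2* window held any of the letters searched. The *Axin2* window lies inside its annotated locus (chr11:108917828-108950783), so the 5′ end of that locus was not searched. The full CRE was in none of the 37 windows of the 32 genes of the set that had one, beside 1.79% of all windows. These are matches of letters within 300 bases and not measured binding. No window was at hand for *Sfrp1*, *Sfrp4*, *Wnt5a* and *Lrp6*.

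Among the 16 ligands 4 were tested, of which *Wnt5a* and *Wnt10b* fell in cKO ingWAT and none rose. The shares over all genes tested were 13.8% called lower and 12% called higher. *Wnt5a* (Entrez gene 22418, chr14:28504543-28527448), the most abundant ligand gene of the set, was at 6.20 and 5.66 FPKM in Ctrl and at 3.35 and 3.64 in cKO. The groups did not overlap, and the log2 fold change was -0.62 (SE 0.0884, limma adjusted p = 0.00302), or 5.93 ± 0.382 against 3.50 ± 0.205 FPKM (mean ± SD, n = 2 each). Without Ctrl 1 the adjusted p was 0.0584. In this and every other fit that leaves out a library, 1 genotype has a single library, which is assumed to vary like the 2 of the other genotype, so a lost call may reflect the smaller design. *Wnt10b* (Entrez gene 22410, chr15:98770712-98778206), the ligand known to hold back adipocyte differentiation, was at 2.88 and 2.10 FPKM in Ctrl and at 1.08 and 0.990 in cKO. Its Ctrl libraries differed more from each other than its cKO libraries did, but both stood above both cKO values. The log2 fold change was -0.77 (SE 0.137, limma adjusted p = 0.00739), and the call was lost without Ctrl 1 (adjusted p = 0.0673) and when no minimum was set (0.0531). *Wnt11*, which acts mainly outside the β-catenin branch, was at 3.23 and 2.67 FPKM in Ctrl and at 2.17 and 2.12 in cKO. These groups did not overlap either, but the difference did not pass (log2 fold change -0.33, 95% interval -0.58 to -0.07, limma adjusted p = 0.0679). *Wnt9a* had a log2 fold change of -0.18 with an interval from -0.47 to 0.11. Summed over the 16 ligands, FPKM were 17.2 and 14.4 in Ctrl and 9.44 and 10.1 in cKO. *Wnt5a* made up 36.0% and 39.3% of that sum in Ctrl and 35.5% and 36.1% in cKO, so its share was alike where its level was not. Fibroblast progenitor markers also fell, in 7 of 10, as did skeletal muscle markers, in 11 of 11, and their part in the ligand changes was not tested.

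The other 12 ligands had a mean under 1 FPKM. *Wnt6* came closest, at 1.14 and 1.06 in Ctrl and at 0.480 and 1.01 in cKO, so that the spread between its cKO libraries was wider than the gap between the groups. *Wnt5b* and *Wnt10a* reached 0.750 and 0.670 FPKM in their highest library. *Wnt2b* was at 0.410 and 0.450 in Ctrl and at 0.260 and 0.270 in cKO, and *Wnt4* at 0.30 and 0.360 against 0.210 and 0.130. Both genes were lower in both cKO libraries, and each value stood for about 9.5 to 27.2 reads at the estimated depth. *Wnt1*, *Wnt16*, *Wnt9b*, *Wnt8b*, *Wnt8a*, *Wnt3* and *Wnt7b* lay at or under 0.140 FPKM in every library, which stood for about 6.1 reads or fewer.

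The secreted antagonists had the lowest median of the 5 roles. All 4 numbered *Sfrp* genes and *Dkk2* fell in cKO, 5 of the 6 antagonists tested, while 13.8% of all genes tested were called lower. The median log2 fold change of the 6 was -0.91, and *Dkk2* passed the minimum through Ctrl only. *Sfrp2* (Entrez gene 20319, chr3:83765750-83774314), the most abundant antagonist of the set, was at 36.6 and 29.1 FPKM in Ctrl and at 20.9 and 19.1 in cKO (log2 fold change -0.68, SE 0.107, limma adjusted p = 0.00460). *Sfrp5* (Entrez gene 54612, chr19:42197971-42202252), the adipocyte-secreted member known to bind Wnt5a, was at 10.8 and 8.91 FPKM in Ctrl and at 4.03 and 4.93 in cKO (-0.99, SE 0.118, adjusted p = 0.00160). In both, every cKO library stood below every Ctrl library. *Sfrp4* (Entrez gene 20379, chr13:19623175-19632825) was at 10.7 and 8.29 FPKM in Ctrl and at 5.20 and 4.49 in cKO (-0.84, SE 0.123, adjusted p = 0.00345). *Sfrp1* (Entrez gene 20377, chr8:23411383-23449632) was at 4.01 and 3.25 against 1.38 and 1.21 FPKM (-1.01, SE 0.119, adjusted p = 0.00158). Neither gene overlapped between the genotypes, and in all 4 *Sfrp* genes Ctrl 1 was the highest library. When no minimum was set, *Sfrp2* and *Sfrp4* just missed the threshold, with adjusted p = 0.0572 and 0.0511.

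Together the 4 *Sfrp* genes summed to 62.2 and 49.5 FPKM in Ctrl and to 31.5 and 29.7 in cKO. *Sfrp2* held 58.9% and 58.7% of that sum in Ctrl and 66.3% and 64.2% in cKO. Its share was therefore larger in both cKO libraries while its level was lower. The difference in share was not tested.

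Markers of several cell types fell with the antagonists. Schwann and nerve markers fell in 5 of 6 and rose in 1, at a median log2 fold change of -0.92. Adipocyte and endothelial markers each fell in 3 of 6 and rose in 0, at medians of -0.42 and -0.20. Of all genes tested, 13.8% fell and 12% rose. Fibroblast progenitor markers fell in 7 of 10 and rose in 0. Their median on the log2 scale was -0.69, with summed levels of 1801 and 1557 FPKM in Ctrl and 1046 and 1061 in cKO. *Pi16* had a log2 fold change of -1.94, *Cd34* -1.05 and *Pdgfra* -0.63. On log2(FPKM + 1) all 10 ran from -1.94 to -0.07, and the *Sfrp* genes and *Dkk2* lie inside that range. The scale understates the change of low genes such as *Dkk2*, with means of 2.21 against 0.500 FPKM, a ratio of 4.42. Lying inside the range therefore depends on the scale. In whole tissue, fewer cells of a type and less RNA per cell cannot be told apart. Skeletal muscle markers, all 11 of those tested, were lower in cKO, with sums of 2327 and 1550 FPKM in Ctrl and 9.20 and 7.31 in cKO. As both Ctrl libraries carried this RNA and neither cKO library did to that degree, its presence and the genotype cannot be told apart. Ctrl 1 held more muscle RNA than Ctrl 2 and also the larger fibroblast progenitor sum, while B cell and T cell marker sums were larger in Ctrl 2. Of the 11 genes of the set that fell, 9 were higher in Ctrl 1 and 2, *Fzd4* and *Lrp6*, were higher in Ctrl 2. That order was not counted over all genes, so it cannot be tied to any 1 cell type. The part of any of these cell types in the antagonist changes was not tested.

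*Dkk2* (Entrez gene 56811, chr3:132085266-132180304), an Lrp5 and Lrp6 ligand of the Dickkopf family, was at 2.30 and 2.12 FPKM in Ctrl and at 0.460 and 0.540 in cKO. These values stood for about 153 and 141 reads against 29.4 and 34.8. Both cKO libraries were far below both Ctrl libraries, with means of 2.21 ± 0.127 and 0.500 ± 0.0566 FPKM (SD, n = 2 each), a ratio of 4.42. Its log2 fold change of -1.10 (SE 0.118, limma adjusted p = 0.00122) was the lowest of the set, and only *Dkk2* and *Sfrp1* passed when an absolute change of at least 1 was also required. *Dkk3*, a divergent member of the family that does not bind Lrp5 or Lrp6 as the others do, was at 1.09 and 1.28 FPKM in Ctrl and at 1.12 and 1.52 in cKO. The groups overlapped (log2 fold change 0.08, 95% interval -0.24 to 0.40, limma adjusted p = 0.696).

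Of the antagonists below the minimum, *Frzb*, another Frizzled-related protein gene, was at 0.450 and 0.230 FPKM in Ctrl and at 0.0800 and 0.0600 in cKO. *Wif1*, encoding a Wnt-binding inhibitor, went the other way, at 0.240 and 0.370 in Ctrl and at 0.570 and 0.720 in cKO, or about 9.8 to 28.5 reads. Neither gene was tested at the set minimum, and neither passed when no minimum was used. *Dkk1* and *Dkk4* were at 0.0400 FPKM or less in each library.

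*Fzd4* was the 1 Frizzled receptor gene of 7 tested that was called, and it was also the most abundant. Of all genes tested, 13.8% were called lower. In 5 of the 7 each cKO library stood below each Ctrl library, as was so in 34.6% of all genes tested. *Fzd4* (Entrez gene 14366, chr7:89404366-89410110), which encodes a receptor of Wnts and of norrin, was at 30.4 and 30.6 FPKM in Ctrl and at 20.2 and 19.7 in cKO. The libraries of each genotype lay close together and the genotypes apart, with a log2 fold change of -0.59 (SE 0.0566, limma adjusted p = 0.000821, the lowest adjusted p of the set). An annotated neighbour, *Tmem135*, overlaps 338 bases of the *Fzd4* locus, and its own log2 fold change was -0.08 (adjusted p = 0.386). *Fzd4* held 58.2% and 61.2% of the summed FPKM of the 10 Frizzled genes in Ctrl and 51.8% and 52.1% in cKO. The sums themselves were 52.2 and 49.9 against 38.9 and 37.9. Endothelial markers fell in 3 of 6, at a median of -0.20 on the log2 scale and with sums of 248 and 245 FPKM in Ctrl against 209 and 223 in cKO, and their part in the *Fzd4* change was not tested.

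The other 6 tested Frizzled genes did not pass. *Fzd1*, next in level, was at 7.73 and 6.63 FPKM in Ctrl and at 6.88 and 7.10 in cKO, and the groups overlapped (log2 fold change -0.03, 95% interval -0.24 to 0.18). *Fzd7* (-0.10, interval -0.31 to 0.11), *Fzd6* (-0.09, -0.33 to 0.14) and *Fzd5* (0.01, -0.30 to 0.31) had intervals on both sides of 0. *Fzd2* was at 2.78 and 1.87 FPKM in Ctrl and at 1.85 and 1.25 in cKO. Its libraries scattered within each genotype, and the interval of its log2 fold change of -0.38 ran from -0.79 to 0.03, which includes the size of the *Fzd4* fall. *Fzd8* had -0.24 with an interval from -0.50 to 0.03. Whether the *Fzd4* change differed from that of each other Frizzled gene was not tested. Among the 3 below the minimum, *Fzd3* was at 0.720 and 0.700 FPKM in Ctrl and at 0.440 and 0.490 in cKO, *Fzd9* was at 0.210 in Ctrl 1 and Ctrl 2 and at 0.080 and 0.05 in cKO, and *Fzd10* was at 0.400 and 0.460 against 0.660 and 0.750. *Fzd3* and *Fzd9* were lower and *Fzd10* higher in both cKO libraries.

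Of the co-receptor genes, *Lrp5* and *Lrp6* moved little. *Lrp6* (Entrez gene 16974, chr6:134446476-134566913) was at 12.3 and 12.6 FPKM in Ctrl and at 10.1 and 10.6 in cKO. The groups did not overlap, and the log2 fold change was -0.24 (SE 0.0659, limma adjusted p = 0.0345). Leaving out any single library ended this call, with adjusted p = 0.157 without Ctrl 1, 0.178 without Ctrl 2, 0.118 without cKO 1 and 0.0648 without cKO 2, and so did eBayes without a trend (0.0514). *Lrp5* was at 17.3 and 16.7 FPKM in Ctrl and at 15.8 and 15.9 in cKO (log2 fold change -0.10, 95% interval -0.24 to 0.04, limma adjusted p = 0.277). *Ror1* and *Ror2*, kinases that serve as Wnt5a receptors, were below the minimum. *Ror1* was at 0.670 and 0.610 FPKM in Ctrl and at 0.410 and 0.500 in cKO, and *Ror2* was at 0.490 and 0.450 against 0.20 and 0.340, both lower in both cKO libraries.

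**Figure D2:**
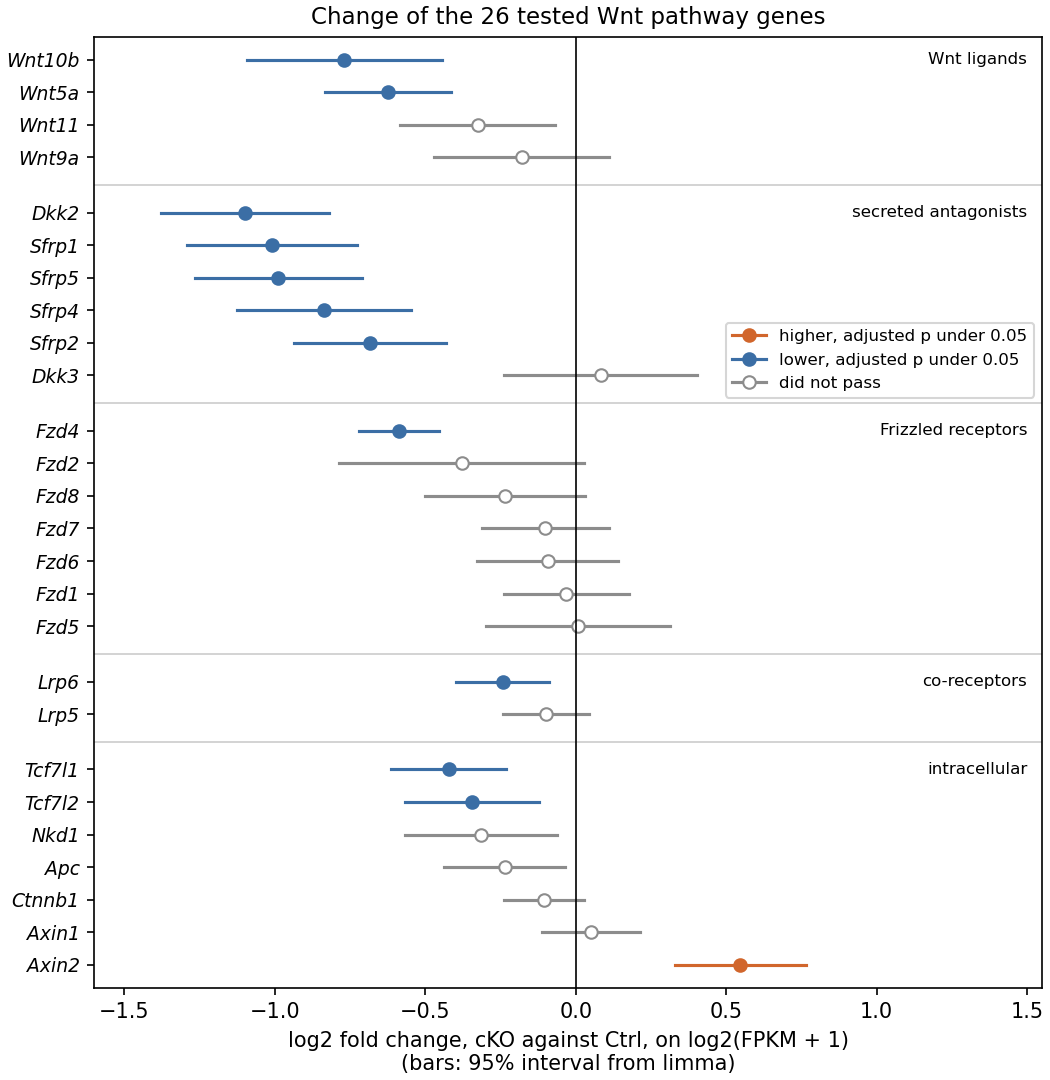
Log2 fold change, cKO against Ctrl on log2(FPKM + 1), of the 26 tested Wnt pathway genes with the 95% interval from limma, grouped by role, with filled points for genes with an adjusted p under 0.05. The 5 called antagonists lie between -1.10 and -0.68, the Frizzled genes other than *Fzd4* have intervals that reach 0, and *Axin2* alone is called on the right, at 0.55.

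Of the 26 tested genes *Axin2* alone rose. *Axin2* (Entrez gene 12006, chr11:108917828-108950783), a scaffold of the β-catenin destruction complex whose transcription is itself driven by β-catenin, was at 3.85 and 3.51 FPKM in Ctrl and at 5.50 and 6.18 in cKO. Both cKO libraries stood above both Ctrl libraries, with means of 3.68 ± 0.240 and 5.84 ± 0.481 FPKM (SD, n = 2 each), a ratio of 1.59. The log2 fold change was 0.55 (SE 0.0921, limma adjusted p = 0.00598). Without Ctrl 1 the log2 fold change was 0.60, and without Ctrl 2 it was 0.49. As the groups did not overlap, leaving out a library could not have changed the direction. *Axin1*, its constitutive paralog, was at 12.6 and 12.2 FPKM in Ctrl and at 12.4 and 13.4 in cKO, with overlapping groups (log2 fold change 0.05, 95% interval -0.11 to 0.21). The intervals of *Axin2*, from 0.33 to 0.76, and of *Axin1* did not meet. B cell markers rose in 5 of 5 and T cell markers in 5 of 6, with sums of 202 to 227 against 322 to 364 FPKM for B cells and of 81.7 to 85.7 against 113 to 150 for T cells. Of 4 tested lymph node stroma markers 2 rose as well, while 12% of all genes tested were called higher. The part of these cells in the rise of *Axin2* was not tested.

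β-catenin's own gene *Ctnnb1*, the most abundant of the 48, was at 112 and 108 FPKM in Ctrl and at 100 and 104 in cKO. The difference was small and did not pass (log2 fold change -0.11, 95% interval -0.24 to 0.03, limma adjusted p = 0.211). *Apc*, the scaffold partner of Axin, was at 5.56 and 5.88 against 4.47 and 4.95 FPKM (-0.24, interval -0.44 to -0.03, adjusted p = 0.0849). *Nkd1*, which encodes a Dishevelled-binding inhibitor and is itself a β-catenin target, was at 2.03 and 2.15 against 1.56 and 1.41 FPKM (-0.31, interval -0.57 to -0.06, adjusted p = 0.0715). Neither pair of groups overlapped, and *Nkd1* thus lay on the other side of 0 from *Axin2*. *Nkd2* was under the minimum, between 0.570 and 0.760 FPKM.

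Both TCF genes of the set fell. *Tcf7l1* (Entrez gene 21415, chr6:72626371-72789045), mostly known as a repressor of β-catenin targets, was at 13.4 and 11.9 FPKM in Ctrl and at 8.83 and 9.44 in cKO (log2 fold change -0.42, SE 0.0804, limma adjusted p = 0.00934). The call was lost without Ctrl 1 (adjusted p = 0.105) and without cKO 1 (0.0562). *Gm15401*, which overlaps 8430 bases of the locus, went up, from 0.530 and 0.760 to 1.72 and 1.73 FPKM, and no strand marking is stated. *Tcf7l2* (Entrez gene 21416, chr19:55741797-55933659), a TCF factor studied in adipocyte and glucose metabolism, was at 5.73 and 4.98 FPKM in Ctrl and at 3.84 and 4.16 in cKO. Its groups did not overlap (-0.34, SE 0.0944, limma adjusted p = 0.0360), but the call was lost without any single library, with adjusted p = 0.249 without Ctrl 1, 0.0798 without Ctrl 2, 0.133 without cKO 1 and 0.0666 without cKO 2. When no minimum was set, *Tcf7l1*, *Tcf7l2* and *Lrp6* missed the threshold as well, with adjusted p = 0.0572, 0.113 and 0.0664.

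**Figure D3:**
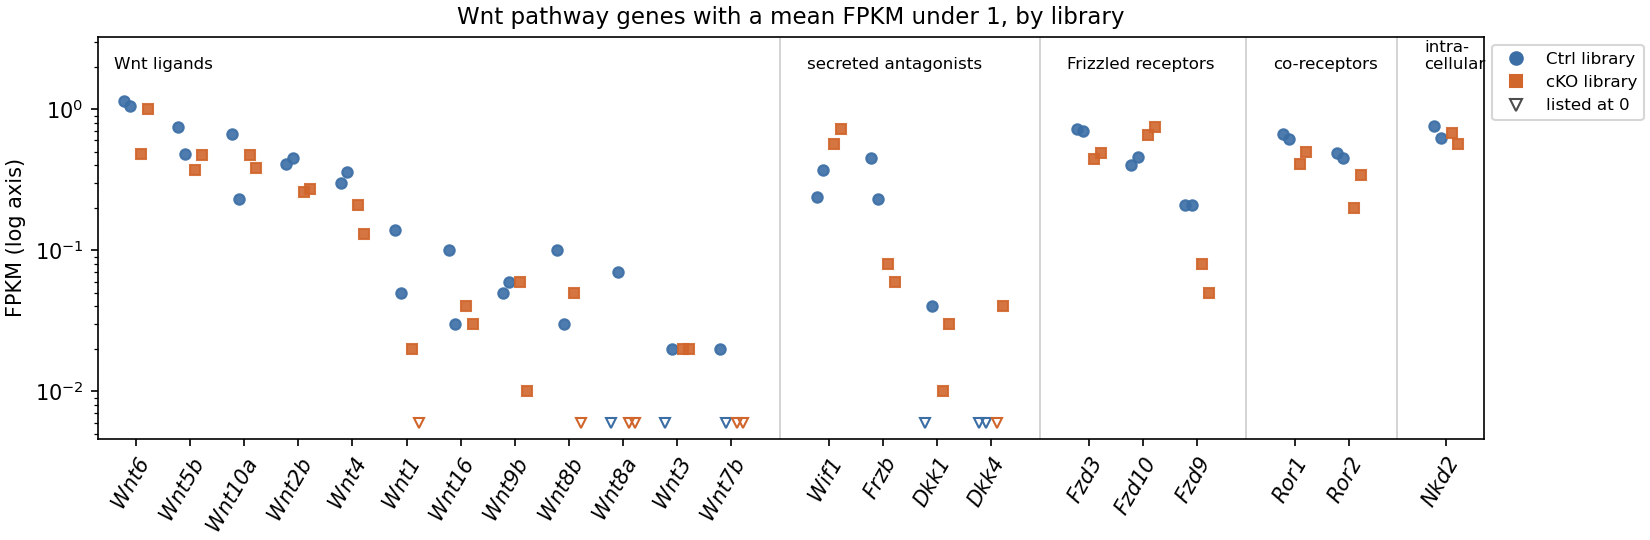
FPKM (log axis) of the 22 Wnt pathway genes with a mean under 1 FPKM, with 1 point per library and open triangles for values listed at 0. In 10 of the 22 each cKO point lies below both Ctrl points, beside 20.6% of all 6372 genes under the minimum, and in 2, *Wif1* and *Fzd10*, both lie above, beside 14.6%.

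A list of 60 further pathway genes was read from the same fit. Of these, 46 were tested, 5 were higher and 12 lower in cKO, beside 12% and 13.8% of all genes tested. Their median was -0.12 on the log2 scale. Genes that act on ligands or receptors made up most of the falls, since 2 of 2 tested secretion genes and 5 of 6 other receptors and membrane antagonists were lower. *Gpc3*, a cell-surface glypican that binds Wnts, was at 11.8 and 9.40 FPKM in Ctrl and at 2.64 and 2.54 in cKO (log2 fold change -1.69, limma adjusted p = 0.000257). *Apcdd1*, a membrane inhibitor of Wnt signalling, was at 27.1 and 23.7 against 13.3 and 14.3 FPKM (-0.83, adjusted p = 0.000858). *Rspo1*, which encodes a secreted enhancer of Wnt signalling, was at 1.38 and 1.72 against 0.730 and 0.690 (-0.57, adjusted p = 0.0171). It passed the minimum through Ctrl only. *Wls*, the carrier that all Wnts need to leave the cell, was at 32.5 and 31.7 against 21.3 and 22.7 FPKM (-0.52, adjusted p = 0.00150). *Gpc4* fell as well, by 0.50 on the log2 scale.

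The 5 genes that rose included *Lgr6*, a receptor of R-spondins, at 0.420 and 0.580 FPKM in Ctrl and at 2.43 and 2.15 in cKO (log2 fold change 1.13, limma adjusted p = 0.00131). Both Ctrl values of *Lgr6* lay under 1 FPKM, so it passed the minimum through cKO only. *Lef1* and *Tcf7*, TCF/LEF factors that T lymphocytes also express, rose by 0.57 and 0.54, beside the B cell and T cell markers that rose. *Dvl3* and *Gsk3a* rose by 0.26 and 0.25. Of the 13 tested genes of the destruction complex and Dishevelled group, 2 rose and 1 fell, with a median of -0.05. Among all genes tested, 12% rose and 13.8% fell.

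Genes often used as readouts of β-catenin were listed apart from the set. Among them *Lef1*, *Tcf7*, *Apcdd1*, *Znrf3*, *Notum*, *Rnf43* and *Lgr5* are also in the list of further pathway genes, so the lists are not independent. Of 15 such genes 8 were tested, 4 were higher (*Cd44*, *Lef1*, *Tcf7*, *Ccnd1*) and 1, *Apcdd1*, was lower, beside 12% and 13.8% of all genes tested. Over the 8 the median was 0.14 on the log2 scale. *Cd44*, an adhesion receptor of many leukocytes, was at 8.19 and 8.31 FPKM in Ctrl and at 13.1 and 13.9 in cKO (0.65, limma adjusted p = 0.00114). *Ccnd1* was at 13.4 and 13.8 against 16.1 and 16.4 FPKM (0.24, adjusted p = 0.0284). The other 3 tested, *Myc*, *Wisp2* and *Znrf3*, did not pass, and *Notum*, *Rnf43*, *Lgr5*, *Sp5*, *Bambi*, *Wisp1* and *Fosl1* lay below the minimum. Not all readouts therefore rose with *Axin2*.

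Other cell types were read from their markers in the same way. Of 6 adipocyte markers 3 fell (*Adipoq*, *Lep* and *Retn*) and 0 rose, while all 7 brown or beige adipocyte markers rose, with a median of 1.48. Schwann and nerve markers fell in 5 of 6 and rose in 1, with summed levels of 294 and 267 FPKM in Ctrl and 131 and 144 in cKO. Smooth muscle and pericyte markers fell in 3 of 7 and rose in 1, and macrophage markers fell in 2 of 6 and rose in 1. The shares over all genes tested were 13.8% called lower and 12% called higher. Keratinocyte and luminal epithelial markers summed to less than 3 FPKM in each library, with *Krt5* listed at 0 in 3 of 4 libraries. The part of these cell types in the changes of the Wnt pathway genes was not tested.

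**Figure D4:**
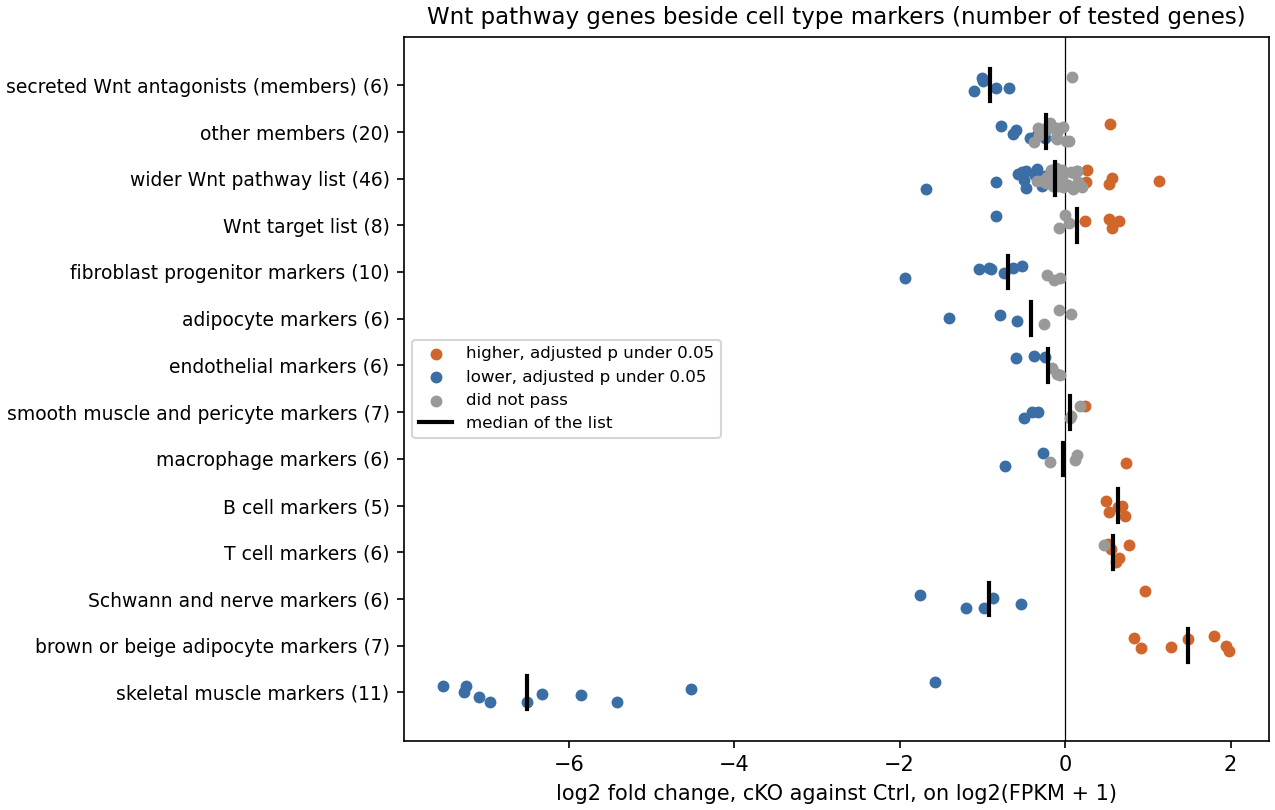
Log2 fold change, cKO against Ctrl on log2(FPKM + 1), of each tested gene (points) of the Wnt pathway groups and of the cell type marker lists, with the median of each list (black line) and the number of tested genes in brackets. The 5 called antagonists, from -1.10 to -0.68, lie in the range of the fibroblast progenitor markers (median -0.69). That placing depends on this scale, which understates the change of low genes such as *Dkk2*. B cell and T cell markers lie near *Axin2*, at medians of 0.64 and 0.58.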

How the data were processed

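From poly-A RNA read as 50 bp single ends on the BGISEQ-500 platform, the authors deposited FPKM for each gene in each library, to the hundredth, without read counts. The submitters' processing notes name HISAT2 2.0.4, RSEM 1.2.12 and the mm10 build, and no scaling between libraries is stated. No per-sample column was left unused. The members and all gene lists were chosen with earlier results of these data known, and every member is accounted for by its value or range. Other genes of these families were not analysed here. limma 3.58.1 in R 4.3.3 was run on log2(FPKM + 1), with eBayes and a variance trend, over the 12658 genes with a mean of at least 1 FPKM, with Benjamini-Hochberg adjustment and a two-sided threshold of 0.05. Samples were grouped by their genotype labels. Further pathway genes named are the 5 largest rises and falls that were called, and up to 3 markers per list are named.

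The 2 Ctrl and 2 cKO libraries carry the same replicate numbers, but the deviations of equal numbers correlated at 0.0148 across genes, so they were not treated as pairs. Depth was estimated jointly from the FPKM steps of RNA genes no longer than 400 bases, with values of at most 6 reads and transcript lengths shortened by 36 bases, and 83.3% to 88.6% of the values used came out whole within 0.1. Read numbers given are approximate and cover counting error only. Both the comparison and the depth estimate were tested on simulated data. Coordinates and promoter windows come from RefSeq tables of GRCm38.p6. The CRE search was added after the TCF/LEF search had been planned. Alternatives were a pseudocount of 0.1, no minimum, a minimum of 5 FPKM, median-of-ratios scaling, quantile normalization, a replicate block, eBayes without a trend, an absolute log2 fold change of at least 1, and each library left out. The other steps used pandas 2.3.3, matplotlib 3.10.9 and numpy 2.4.6 (Python 3.11.15).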

Additional observations from a re-analysis of the deposited data

How the results depend on the processing

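No call among the 12 changed its direction, but most alternatives could not have changed one. The groups of these 12 genes did not overlap, and several alternatives leave the log2 fold change as it was. With a pseudocount of 0.1, median-of-ratios scaling or quantile normalization all 12 kept their call. *Dkk2* and *Sfrp1* passed in all 11 alternatives that gave them a value, and *Fzd4* and *Sfrp5* failed only where an absolute log2 fold change of at least 1 was required. Over all genes, 3269 were called, against 1762 with no minimum, 233 with an absolute log2 fold change of at least 1 and 877 to 2429 with a library left out. The 11 genes called lower became 5 with no minimum, 6 with a minimum of 5 FPKM, 2 with an absolute log2 fold change of at least 1 and 6 to 9 with a library left out, the lowest without Ctrl 1. The 1 gene called higher became 0 with a minimum of 5 FPKM, 0 with an absolute log2 fold change of at least 1 and 0 to 1 with a library left out, since *Axin2* has a mean under 5 FPKM and missed the threshold without Ctrl 1 or Ctrl 2. With no minimum, 0 of the 22 low genes passed in limma. In the further pathway list the 5 higher became 2 with no minimum, 1 with an absolute log2 fold change of at least 1 and 1 to 3 with a library left out, and the 12 lower became 6, 1 and 3 to 6. Of the β-catenin readouts, the 4 higher became 2, 0 and 1 to 3, and the 1 lower became 0 with an absolute log2 fold change of at least 1 and otherwise stayed at 1, also with a library left out. With the replicate number as a block, 12 genes were called lower, 1 higher and 3383 over all genes. The estimated depth leaves genes under about 0.1 FPKM with a few reads each, too few to show a difference. Each fit without a library has 1 genotype with a single library, assumed to vary like the other genotype. Fewer samples and, with no minimum, more genes enter those fits by construction, and the cause of the calls lost there was not tested further. With a minimum of 5 FPKM all 6 called genes that were still tested kept their call. The other called genes had a mean under 5 FPKM and were not tested at that setting.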
